A study of Mus musculus with 6 samples.

Results

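The cytotoxic granule system was followed through 10 genes in control and RTF1-deficient mouse Th17 cells. These were perforin (Prf1), 3 granzymes (Gzma, Gzmb and Gzmk), the granule proteins Nkg7 and Srgn, and 4 clade B serpins (Serpinb9, Serpinb6a, Serpinb6b and Serpinb1a). The members were chosen by name, and all 10 were found among the 31017 genes of the count table. RNA sequencing covered 6 libraries, all from cells labelled Th17 and differentiated in culture. The 3 control libraries carry the genotype WT, and the 3 others carry the genotype KO, described for the series as deficient in RTF1, a nuclear factor that travels with RNA polymerase II and promotes ubiquitination of histone H2B. Strain, age, the way the gene was deleted, the culture conditions and whether replicates were separate animals are not given in the sources used here. The p-values therefore measure only the spread between these libraries, and the labels do not say how much of it is technical.

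Cytotoxic granules are secretory lysosomes in which perforin and granzymes are stored on the proteoglycan serglycin, the product of Srgn. After release, perforin forms pores in the membrane of the target cell, and granzymes, which are serine proteases, enter and cleave substrates that lead to death. Clade B serpins are intracellular protease inhibitors that trap their protease irreversibly, and SERPINB9 is the inhibitor of granzyme B that protects killer cells from their own granules. Killer programs are typical of CD8 T cells and natural killer (NK) cells, and Th17 cells are not known for a high content of these proteins.

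Library totals ran from 16489813 to 51271226 counts, and 14268 genes passed the filter on low counts. Levels are given as CPM, which are normalised counts scaled to library size by the TMM method. Rtf1 kept 37.2% of its control level in KO, with 88.3 to 94.0 CPM in the control libraries and 26.2 to 45.3 CPM in the KO libraries, which did not overlap. All 10 listed T cell and Th17 markers were detected and tested, of which 1 was called higher in KO, 6 lower and 3 not called, and their summed level was 3260 to 3900 CPM in control and 1560 to 2220 CPM in KO. Over all tested genes, 23.2% were called higher and 22.9% lower. Cd3e was the one called higher (199 ± 16.7 and 326 ± 31.9 CPM, SD, n = 3), and those called lower were Il17a (292 ± 63.9 and 92.8 ± 61.6 CPM), Il17f, Il21, Il23r, Ccr6 and Cd4 (486 and 254 CPM). Replicate 3 of both groups held Y-linked counts (11376 and 5147 over 4 genes, against 1 to 3 elsewhere) and only 5 and 1 counts of Xist, against 14668 to 28176 elsewhere.

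The granule genes were higher in every KO library than in every control library, except for Srgn and Gzmk. In the edgeR fit over all genes, 9 of the 10 members were tested and 8 were called higher (adjusted p under 0.05) with 0 called lower. The shares over the whole fit were 23.2% higher and 22.9% lower, or 46.1% called. Every KO library lay above every control library for 8 of the 10 members and below for 0, which was so for 29.9% and 28% of all tested genes. The genes were proposed with the results of this comparison known, so their fold changes and calls are a description, no p-value is given for them, and their counts are not evidence that the group stands apart. Of the 9, Prf1, Gzma and Nkg7 passed the filter only through the KO libraries, so their being tested depended on their level there. They reached the filter level of 0.325 CPM in 2, 1 and 2 control libraries and in all 3 KO libraries. In bulk RNA, more cells that express a gene and more RNA per cell cannot be told apart.

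**Figure D1:**
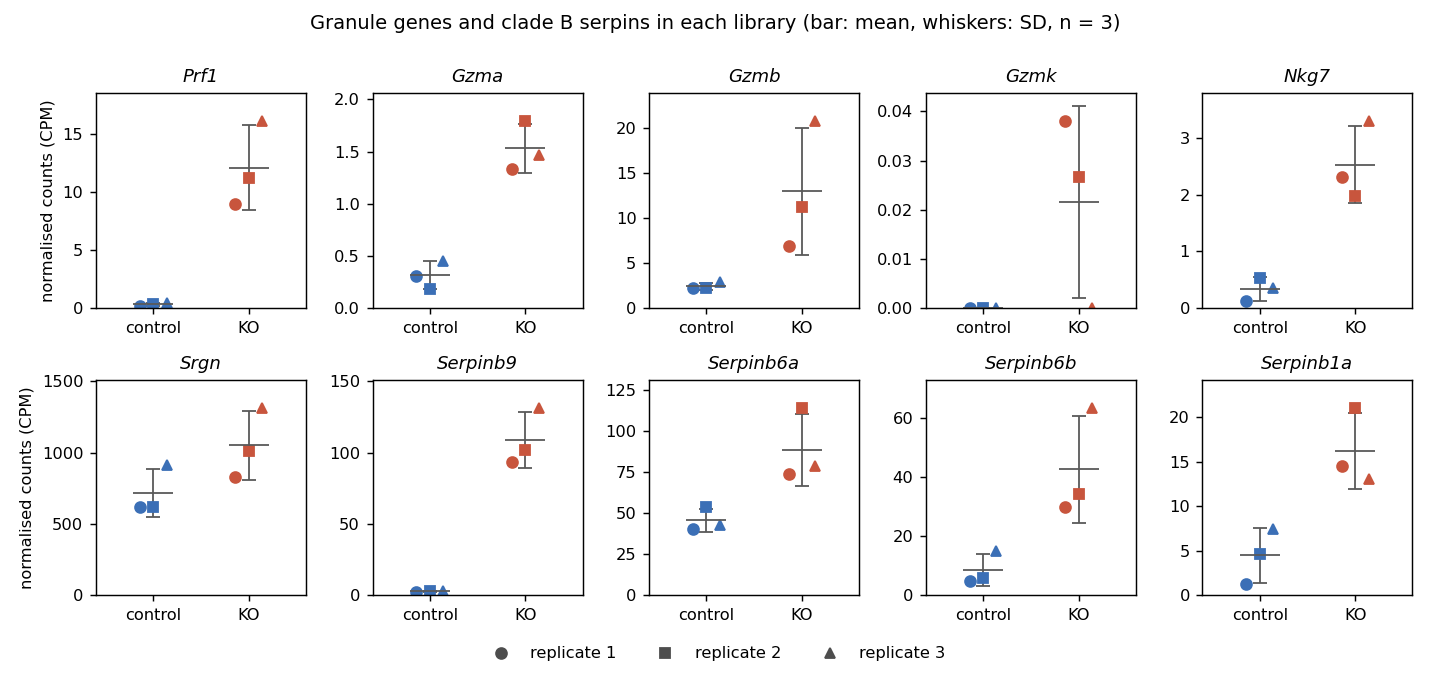
Normalised counts (CPM, linear axes from 0) of the 10 genes in each of the 3 control and 3 KO libraries; symbols mark the replicate number, bars the mean and whiskers the SD. Only Srgn and Gzmk show overlapping groups, and replicate 3 is the highest KO library for 6 of the 9 tested genes.

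Start-site windows are shown for Serpinb9, Prf1 and Gzmb, the inhibitor, the pore former and the protease, because these members were higher together in KO. Each window runs from 250 bases before to 50 bases after a RefSeq start site (GRCm38.p6), written 5′ to 3′ along the gene, at chr13:33004291-33004590 on the plus strand for Serpinb9, chr10:61297586-61297885 on the plus strand for Prf1 and chr14:56262285-56262584 on the minus strand for Gzmb. RefSeq windows were found for 9 of the 10 members, the exception being Serpinb1a. Capitals mark matches, on either strand, to 5 motifs: a T-box core (GGTGTG), RUNX (TGTGGT), the STAT element GAS (TTCNNNGAA), an ISRE core (GAAA, any 2 bases, GAAA) and AP-1 (TGANTCA).
Serpinb9: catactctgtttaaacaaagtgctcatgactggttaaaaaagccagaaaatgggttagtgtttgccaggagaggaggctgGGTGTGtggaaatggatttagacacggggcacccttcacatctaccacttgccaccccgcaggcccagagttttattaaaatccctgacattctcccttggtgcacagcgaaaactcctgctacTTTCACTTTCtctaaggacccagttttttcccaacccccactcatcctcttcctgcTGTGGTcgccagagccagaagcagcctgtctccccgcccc
Prf1: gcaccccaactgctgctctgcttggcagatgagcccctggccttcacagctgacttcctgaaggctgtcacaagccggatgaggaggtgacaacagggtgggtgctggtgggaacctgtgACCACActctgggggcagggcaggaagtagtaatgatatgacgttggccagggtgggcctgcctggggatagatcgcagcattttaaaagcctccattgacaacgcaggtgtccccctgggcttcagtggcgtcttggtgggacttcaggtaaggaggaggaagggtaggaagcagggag
Gzmb: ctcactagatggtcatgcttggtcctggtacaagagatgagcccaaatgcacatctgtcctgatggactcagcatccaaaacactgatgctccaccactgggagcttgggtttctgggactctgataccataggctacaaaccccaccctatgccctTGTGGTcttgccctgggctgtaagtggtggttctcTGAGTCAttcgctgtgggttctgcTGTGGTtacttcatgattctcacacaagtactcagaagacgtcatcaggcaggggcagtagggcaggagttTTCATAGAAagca

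The Serpinb9 window held 1 ISRE core on the opposite strand, TTTCACTTTC, with its first base at -46 from the start site, together with a T-box core at -170 and a RUNX match at 11. An ISRE core occurred in 3.44% of the 32851 RefSeq windows of this length, and among members also in those of Gzma, Serpinb6a and Srgn. The Prf1 window held a RUNX match at -130 and no other. The Gzmb window held RUNX matches at -93 and -34, an AP-1 match at -58 and a GAS match at 38. The 9 members had 11 windows, since Serpinb6a and Srgn have more than 1 start site. RUNX matches occurred in 6 of these 11 windows and in 16.8% of all windows, T-box cores in 4 and 19.0%, GAS matches in 3 and 8.30%, and AP-1 in 1 and 7.81%. The matches in the printed windows do not overlap each other, and in Serpinb6a an ISRE core and a GAS match share bases. These matches describe letters, and binding was not measured.

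Prf1, on chromosome 10 (GRCm38 chr10:61297833-61304680), encodes the pore-forming protein. The control libraries held 0.182, 0.351 and 0.451 CPM in replicates 1, 2 and 3, from 3, 17 and 19 counts. The KO libraries held 8.96, 11.2 and 16.1 CPM, from 236, 419 and 316 counts. Prf1 was thus close to the floor of 3 counts in control replicate 1 and well measured in every KO library. KO exceeded control by a log2 fold change of 5.08 (SE 0.371), about 33.8-fold, and leaving out 1 library at a time moved it between 4.83 and 5.25. It ranked 58th of the 14268 tested genes by increase.

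Gzmb, on chromosome 14 (GRCm38 chr14:56258838-56262260), encodes granzyme B, which cleaves after aspartate and activates caspases. It held 2.19, 2.23 and 2.85 CPM in the control libraries, in order of replicate number, while the KO libraries held 6.95, 11.3 and 20.8 CPM. The controls were tightly grouped, whereas the highest KO library exceeded the lowest by more than the whole control level. Gzmb had a log2 fold change of 2.41 (SE 0.388), with 1.91 without KO replicate 3 and 2.71 without KO replicate 1.

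Gzma, on chromosome 13 (GRCm38 chr13:113093825-113100981), encodes the tryptase-like granzyme A. Its control libraries held 0.304, 0.186 and 0.451 CPM (5, 9 and 19 counts), and its KO libraries 1.33, 1.79 and 1.47 CPM (35, 67 and 29 counts). Gzma stayed low in both groups, and the KO libraries differed little from each other. This gave a log2 fold change of 2.28 (SE 0.432). Gzmk, its neighbour on chromosome 13 (GRCm38 chr13:113171608-113225908), had 0 counts in all 3 control libraries and 1, 1 and 0 counts in KO. A count of 0 allows up to 0.182 CPM in the shallowest control library, so Gzmk was not detectable beyond the floor in either group and no fold change is given.

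Among the remaining granzyme genes, listed separately from the members, only Gzmm passed the filter. It rose from 0.790, 0.826 and 0.879 CPM in the controls to 1.75, 2.67 and 2.19 CPM in KO (log2 fold change 1.40, SE 0.321, edgeR adjusted p = 0.00774). Gzmc was counted at 0, 10 and 5 in control and 8, 7 and 19 in KO and was not tested. Gzmd, Gzme and Gzmf had no more than 2 counts in any library, and Gzmg and Gzmn had 0 in every one.

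Nkg7, on chromosome 7 (GRCm38 chr7:43437073-43438249), encodes a granule membrane protein needed for efficient degranulation. Its control libraries held 0.122, 0.537 and 0.356 CPM (2, 26 and 15 counts), and its KO libraries held 2.32, 1.98 and 3.30 CPM (61, 74 and 65 counts). The groups were well apart, but the control level is poorly measured. The log2 fold change was 2.76 (SE 0.471) and lay between 2.41 and 3.18 when 1 library was left out.

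Srgn, on chromosome 10 (GRCm38 chr10:62493833-62527451), was by far the most abundant member. It held 621, 619 and 913 CPM in the control libraries and 829, 1010 and 1310 CPM in the KO libraries, listed by replicate number. Control replicate 3 lay above KO replicate 1, so the groups overlapped, while KO was higher within each pair of equal replicate number. The log2 fold change was 0.55 (SE 0.214), and Srgn was not called. With the replicate number as a block it was called, at the same log2 fold change of 0.55. It was also called with library size as the only scaling (0.64), by DESeq2 (0.54), without a filter (0.54), without control replicate 3 (0.71), without KO replicate 1 (0.69) and in replicates 1 and 2 alone (0.57). It was not called with DESeq2 size factors (0.55), with upper-quartile factors (0.53) or with the filter on a mean count of at least 10 (0.56). Of the 6 fits without 1 library, 4 did not call it, with the lowest value, 0.36, without KO replicate 3.

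**Figure D2:**
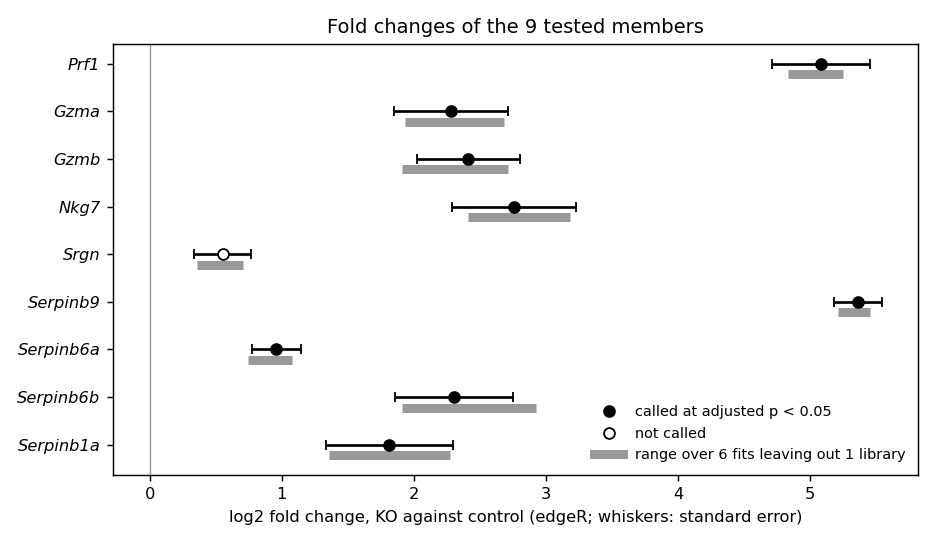
Log2 fold change of KO against control for the 9 tested members (points, with the standard error as whiskers) and the range over the 6 fits that each leave out 1 library (grey bars). Serpinb9 (5.36) and Prf1 (5.08) stand far to the right of the other genes, and Srgn (0.55) is the only gene not called.

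Serpinb9 lies on chromosome 13 (GRCm38 chr13:33003250-33017957). The control libraries held 2.37, 2.83 and 2.64 CPM and the KO libraries 93.2, 102 and 131 CPM. With 39 to 137 counts in the controls and 2454 to 3824 in KO, it was well measured in every library, and both groups were narrow. Its log2 fold change of 5.36 (SE 0.182), about 41-fold, ranked 40th of all tested genes and stayed between 5.21 and 5.45 when any 1 library was left out.

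Serpinb6b, on chromosome 13 (GRCm38 chr13:32965209-32979067), is a mouse relative of the human SERPINB6 gene, whose product inhibits several serine proteases. It held 4.68, 5.90 and 14.8 CPM in the controls, against 30, 34.4 and 63.3 CPM in KO. Replicate 3 was the highest library of each group. Serpinb6b had a log2 fold change of 2.30 (SE 0.445), and without control replicate 3 it was 2.92.

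Serpinb6a, also on chromosome 13 (GRCm38 chr13:33917918-34002794), changed less. The controls held 40.3, 53.7 and 42.9 CPM and the KO libraries 73.7, 114 and 78.8 CPM, a log2 fold change of 0.96 (SE 0.187). This value is uncertain, since 29.3% of its exonic bases overlap another gene, mainly Nqo2 on the opposite strand, and 25.1% of the 50-base windows along its transcripts are also found in other genes. The strand setting of the counting is not given, so reads of Serpinb6a and Nqo2 cannot be told apart there. Nqo2 itself rose, with 4.33 ± 0.917 CPM in control and 33.1 ± 6.39 CPM in KO (SD over 3 libraries), a log2 fold change of 2.94 (edgeR adjusted p = 8.93e-05).

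Serpinb1a, on chromosome 13 (GRCm38 chr13:32842092-32851185), is one of the mouse counterparts of SERPINB1, an inhibitor of neutrophil proteases that also inhibits granzyme H in human cells. It held 1.28, 4.64 and 7.48 CPM in the controls, against 14.5, 21 and 13.0 CPM in KO. The controls spread widely, with 21 counts in replicate 1. The log2 fold change was 1.81 (SE 0.482), and leaving out replicate 2 of either group ended the call (1.80 without the control library, 1.59 without the KO library). In replicates 1 and 2 alone it was 2.46. For the members other than Serpinb6a, at most 2.92% of such windows are found in another gene.

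Per kilobase of exon (RPKM), the levels of different genes can be set side by side. In control, Srgn led with 327 ± 77.0 RPKM, followed by Serpinb6a with 8.44 ± 1.31, Serpinb6b with 3.74 ± 2.44, Serpinb1a with 1.94 ± 1.35, Gzmb with 1.69 ± 0.259 and Serpinb9 with 0.748 ± 0.0656 (SD, n = 3). Nkg7, Gzma and Prf1 followed with 0.370 ± 0.228, 0.312 ± 0.132 and 0.127 ± 0.0526 RPKM. The ranges of Serpinb6b and Serpinb1a, of Serpinb1a and Gzmb, and of Nkg7 and Gzma overlapped, so the order within those pairs is not settled. In KO, Srgn stood at 479 ± 111 RPKM and Serpinb9 moved from the sixth place to the second, with 31.1 ± 5.59 RPKM. Serpinb6b (18.8 ± 7.99), Serpinb6a (16.4 ± 4.03), Gzmb (9.07 ± 4.93), Serpinb1a (7.02 ± 1.86), Prf1 (4.67 ± 1.41), Nkg7 (2.77 ± 0.755) and Gzma (1.52 ± 0.234) came after it. Each of these KO ranges overlapped the next one down, from Serpinb9 to Nkg7, and only Srgn above and Gzma below were separate from their neighbours.

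The balance between the inhibitor and its protease can be read within a library, free of the scaling. Serpinb9 over Gzmb, per kilobase, was 0.445, 0.521 and 0.380 in the controls, against 5.51, 3.71 and 2.58 in KO, by replicate number. Per kilobase, Gzmb thus lay above Serpinb9 in every control library, and the reverse held in every KO library. The control order depends on the exon lengths, 3494 bases for Serpinb9 and 1436 for Gzmb, which pool all annotated transcripts. Raw control counts by replicate number were 39, 137 and 111 for Serpinb9 and 36, 108 and 120 for Gzmb. In KO, Serpinb9 also led in raw counts. Prf1 over Gzmb was 0.0463, 0.0875 and 0.0880 in control and 0.717, 0.549 and 0.429 in KO. Srgn over Gzmb was 185, 181 and 209 in control and 78.0, 58.5 and 41.3 in KO. For Serpinb6b over Gzmb the groups overlapped, at 1.36, 1.68 and 3.30 in control and 2.74, 1.93 and 1.93 in KO.

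**Figure D3:**
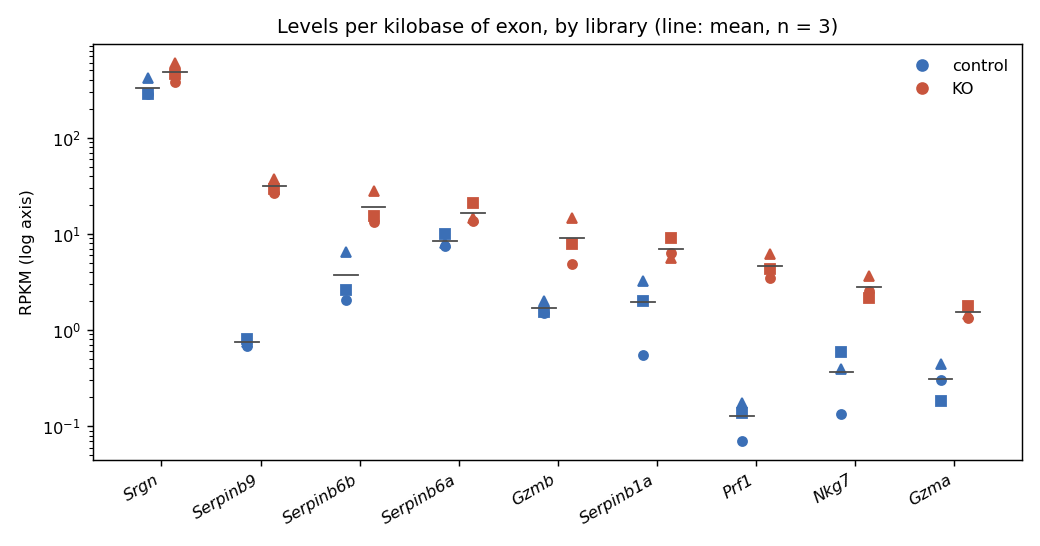
Level per kilobase of exon (RPKM, log axis) of 9 members in each library, ordered by the KO mean, with circles, squares and triangles for replicates 1, 2 and 3 and lines for the group means (Gzmk, at or near 0, is left out). Serpinb9 lies below Gzmb in control (0.748 against 1.69 RPKM) and above it in KO (31.1 against 9.07 RPKM).

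The 4 serpins among the members lie in 1 cluster. On GRCm38 chromosome 13, the stretch chr13:32842092-34002794, which is 1160.7 kb long, holds 16 annotated genes named Serpinb, 15 of them protein coding, among 40 annotated genes. Of the 15 that are in the count table, 7 had 0 counts in every library, and 5 were tested. All 5, the 4 members and Serpinb1b, were called higher in KO, beside 23.2% of all tested genes. The 4 other tested genes lying wholly in the stretch were called higher too. These counts are no evidence about the cluster: the members were chosen with these results known, and Serpinb1b, Gm47662 and Gm6093 passed the filter only through the KO libraries. Of the other 4, Nqo2 and the antisense RNA gene 1110046J04Rik, overlap Serpinb6a on the opposite strand, so their reads are not independent of it.

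Serpinb1b, a close relative of Serpinb1a that is not a member, had 0, 0 and 2 counts in the control libraries and 62, 113 and 78 in KO. Its KO mean of 3.11 ± 0.81 CPM was at least 29.6-fold higher than the control floor of 3 counts per library (edgeR adjusted p = 0.000224). Serpinb9b had 0, 0 and 2 counts in control and 5, 39 and 20 in KO, at least 7.12-fold higher, and did not pass the filter. The noncoding gene Gm47662, 1500 bases from Serpinb9, rose from 0.204 ± 0.107 to 1.47 ± 0.855 CPM (log2 fold change 2.87, SE 0.617, edgeR adjusted p = 0.00573). The noncoding gene Gm6093 had 1, 2 and 2 counts in control and 31, 83 and 12 in KO, at least 12.7-fold higher (edgeR adjusted p = 0.000929). Serpinb9c, Serpinb9d, Serpinb9e, Serpinb9f, Serpinb9g, Serpinb6d and Serpinb6e, which lie between Serpinb1b and Serpinb6a, were at 0 in every library, and Serpinb9f and Serpinb9g share 78.7% and 54.8% of these windows with other genes. Wrnip1, the tested gene beside Serpinb1a outside the cluster, was not called (48.6 and 36.0 CPM; log2 fold change -0.43, edgeR adjusted p = 0.0516). Ripk1, which overlaps the 5′ (start) end of Serpinb6a, rose (1.25, adjusted p = 0.000369), and beyond it Tubb2a rose (1.41, adjusted p = 0.00049), while Tubb2b (-0.62, adjusted p = 0.0218) and Psmg4 (-0.74, adjusted p = 0.0164) fell.

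**Figure D4:**
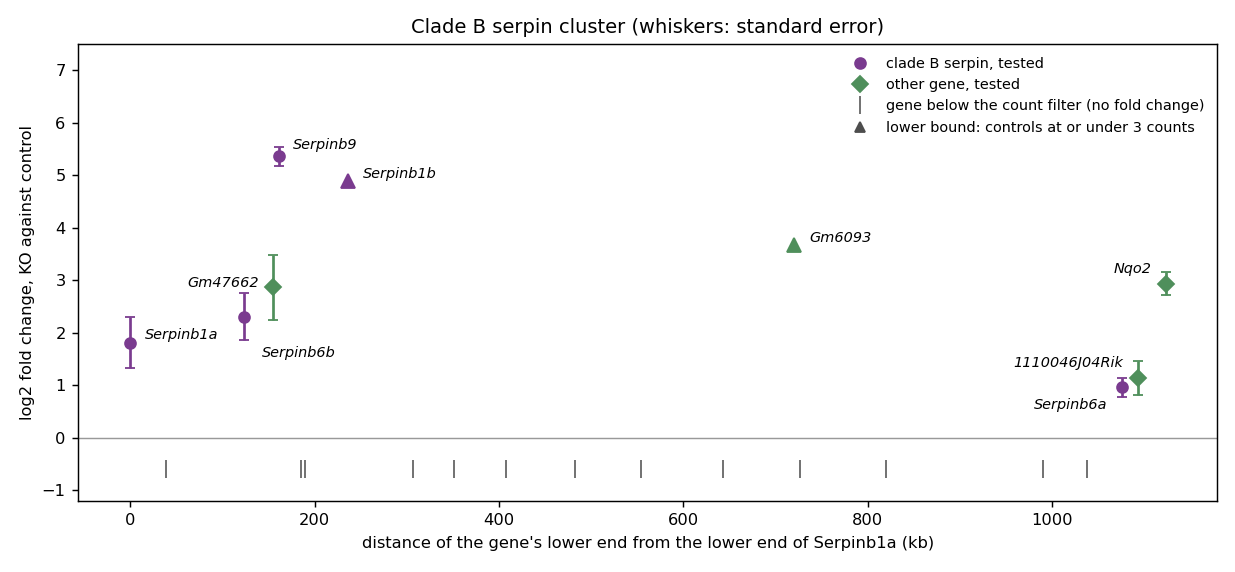
Log2 fold change of KO against control (points, with standard errors) for each tested gene of the serpin cluster against its distance in kb from Serpinb1a; triangles are lower bounds for genes with at most 3 counts in every control library, and ticks mark genes of the table below the count filter. All 9 tested genes lie above 0, and the stretch between Serpinb1b and Gm6093 holds no tested gene. The members among them were chosen with these results known, and Serpinb1b, Gm47662 and Gm6093 passed the filter only through the KO libraries.

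Genes near the other members did not all move with them. Within 200 kb of Prf1, 6 genes were tested, of which 2 were called higher, Sgpl1 (log2 fold change 1.08, edgeR adjusted p = 0.000871) and Adamts14 (adjusted p = 0.00398), and 1 was called lower, Lrrc20 (-1.22, adjusted p = 0.00213). Around Gzmb, Mcpt8, a basophil protease gene, was called higher (1.80, adjusted p = 0.0387) and Rnf17 lower (-1.45, adjusted p = 0.0338), both at low levels, at most 1.11 CPM on average in either group. Mcpt8 passed the filter only through the KO libraries. Around Gzma, Ccno rose (2.54, adjusted p = 0.000262) and Dhx29 was not called (-0.067, adjusted p = 0.701). Around Nkg7, 7 genes were tested, with 5 higher and 0 lower, and around Srgn 10 were tested, with 3 higher and 1 lower. The control means of Adamts14 (0.243 CPM) and of Iglon5, called higher near Nkg7 (0.126 CPM), lay under the filter level of 0.325 CPM. So did the KO mean of Rnf17 (0.241 CPM). Such genes passed the filter only with the help of the group where they were higher. The shares over all tested genes were 23.2% higher and 22.9% lower.

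The cathepsins and membrane proteins that build granules mostly rose in KO. Of 15 listed genes for granule biogenesis and granzyme processing, 14 were tested, 9 were called higher, 1 lower and 4 not called, with a median log2 fold change of 0.83. Over all tested genes the median was 0.013, with 23.2% called higher and 22.9% lower. Ctsc, the protease that removes the activation dipeptide from granzymes, rose from 96.4, 104 and 53.9 CPM in the controls to 213, 191 and 138 CPM in KO (log2 fold change 1.09, SE 0.252, edgeR adjusted p = 0.00785). Ctsw, a cathepsin typical of killer cells, rose from 26.9, 31.8 and 15.3 to 90.2, 83.2 and 34.5 CPM (2.82-fold, adjusted p = 0.0109). The groups did not overlap for either gene, but KO replicate 3 of Ctsw lay only just above control replicate 2. Lamp1 (1.30, adjusted p = 0.000243), Lamp2 (1.67, adjusted p = 0.000291) and Cd63 (2.42, adjusted p = 0.0121), membrane proteins of lysosomes and granules, rose too, the last to 3.75 without control replicate 3. Igf2r, a mannose 6-phosphate receptor that sorts granzymes, rose (0.70, adjusted p = 0.0141, not called without control replicate 1 or KO replicate 3), whereas M6pr, the other such receptor, was not called (0.12, adjusted p = 0.414). Ap3b1, an adaptor subunit for lysosomal sorting, was called lower (-0.29, adjusted p = 0.0353), but 5 of the 6 fits without 1 library did not call it.

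Genes of the machinery that releases granules were called in both directions. Of 19 listed exocytosis genes, 18 were tested, 7 were called higher, 3 lower and 8 not called, beside 23.2% higher and 22.9% lower over all genes, with a median log2 fold change of 0.28. The core docking and priming genes were not called: Rab27a held 59.7 ± 8.53 and 56.6 ± 2.15 CPM (-0.078, edgeR adjusted p = 0.651), Unc13d 111 ± 7.23 and 119 ± 5.25 CPM (0.092, adjusted p = 0.493), Stx11 146 ± 26.5 and 135 ± 19.1 CPM (-0.11, adjusted p = 0.615) and Stxbp2 85.7 ± 6.47 and 106 ± 11.3 CPM (0.30, adjusted p = 0.0669, or 0.0374 with the replicate block). Rab7 (0.74, adjusted p = 0.00268), Snap23 (0.79, adjusted p = 0.00312), Stx7 (0.56, adjusted p = 0.0032) and Sytl2, a RAB27 effector (1.38, adjusted p = 0.00625), rose. The RAB27 effectors called lower were Sytl1 (-0.83, adjusted p = 0.0248) and Sytl3 (-0.69, adjusted p = 0.0416), which were not called in 3 and 4 of the 6 fits without 1 library, and the groups overlapped for Sytl3. With 1 library left out, the calls for exocytosis genes fell to 4 higher and 2 lower without control replicate 1 or control replicate 3, and to 4 higher and 0 lower without KO replicate 2.

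Of 17 transcription factors known from killer lymphocytes, all tested, 6 were called higher, 3 lower and 8 not called, beside 23.2% higher and 22.9% lower over all genes. Among them, Eomes passed the filter only through the KO libraries. Tbx21 (T-bet) held 3.28, 4.25 and 2.73 CPM in control and 24.8, 10.3 and 33.9 CPM in KO (log2 fold change 2.74, SE 0.408, edgeR adjusted p = 0.00118). Prdm1 (Blimp-1) held 0.365, 0.619 and 1.05 CPM in control and 7.21, 6.44 and 15.3 CPM in KO (3.75, SE 0.471, adjusted p = 0.000585). KO replicate 3 was the highest library for Tbx21 and Prdm1, as it was for Gzmb and Prf1. Eomes rose from 0.0991 ± 0.0574 to 1.55 ± 0.603 CPM (SD, n = 3; 3.78, adjusted p = 0.000946, or 4.39 without control replicate 2), Zeb2 from 8.06 ± 1.37 to 41.1 ± 14.2 CPM (2.36, adjusted p = 0.000348), and Id2 from 89.4 ± 9.33 to 190 ± 24.1 CPM (1.09, adjusted p = 0.000557). Runx3, a factor of the CD8 lineage, held 175 ± 16.3 and 181 ± 17.1 CPM (0.050, adjusted p = 0.761), and Zbtb7b, the CD4 lineage factor, 87.0 and 87.7 CPM (0.011, adjusted p = 0.949). Bhlhe40 (-0.96, adjusted p = 0.000878), Gfi1 (-1.39, adjusted p = 0.00151) and Bach2, a repressor of effector genes (-0.64, adjusted p = 0.0153, not called without KO replicate 2 or KO replicate 3), fell. Stat4 and Stat5b were not called (-0.49 and -0.34) but were with the replicate block (adjusted p = 0.00494 and 0.0221).

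Of the genes on which granzymes act in a target cell and of the death pathway, 19 of 20 were tested, and 8 were called lower, 1 higher and 10 not called, with a median log2 fold change of -0.32. Over all tested genes, 22.9% were called lower and 23.2% higher. Hmgb2 (-1.59, edgeR adjusted p = 0.00218), Set (-0.75, adjusted p = 0.0101) and Anp32a (-0.75, adjusted p = 0.0016), proteins of the SET complex that granzyme A attacks, fell, although Set and Hmgb2 share 29.3% and 18.7% of their 50-base windows with other genes. Bid, the granzyme B substrate of the BCL2 family, fell from 12.8 ± 0.415 to 8.17 ± 1.02 CPM (-0.65, adjusted p = 0.0133, not called without KO replicate 2). Parp1 (-1.04, adjusted p = 0.00358), Prkdc (-1.01, adjusted p = 0.000688), Lmnb1 (-1.04, adjusted p = 0.00618) and the pore former Gsdme (-0.90, adjusted p = 0.00414) fell as well. Casp8, an initiator caspase, was called higher (0.43, adjusted p = 0.0213), but not in 4 of the 6 fits without 1 library. Among 5 death ligands, Fasl rose from 1.26 ± 0.434 to 2.86 ± 0.948 CPM (1.19, adjusted p = 0.0324) and Tnfsf10 from 1.89 ± 0.257 to 4.63 ± 0.978 CPM (1.28, adjusted p = 0.0062), while Lta was called lower (-0.83, adjusted p = 0.049). Fasl and Lta were each not called in 4 of the 6 fits without 1 library.

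**Figure D5:**
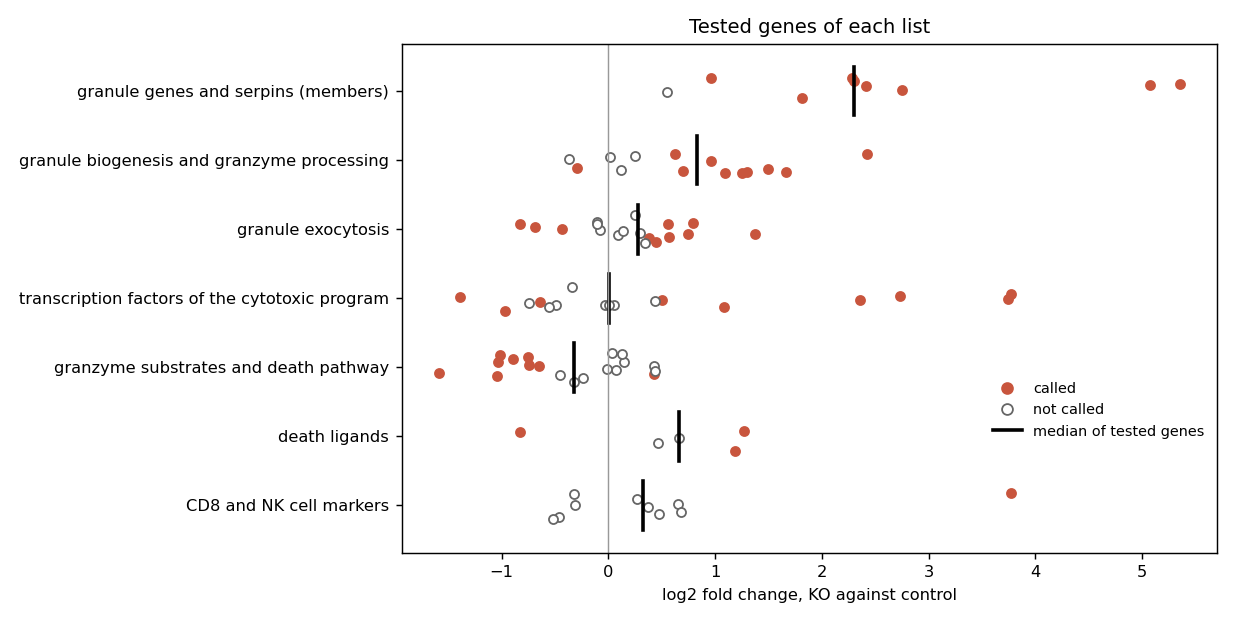
Log2 fold change of KO against control for each tested gene of the members and of 6 related lists (filled points called, open points not called, black lines medians). Medians run from 2.30 for the members, which were chosen with these results known, to -0.32 for granzyme substrates, and 1 of the 10 tested CD8 and NK cell markers, Eomes, is called.

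Markers of other cells that carry these granule genes were measured beside them. The counts of called markers stand beside 23.2% higher and 22.9% lower over all tested genes. Of 15 markers of CD8 and NK cells, 10 were tested, 1 was called higher (Eomes) and 0 lower, and their summed level was 18.4 to 26.8 CPM in control and 22.9 to 25.4 CPM in KO. Klrb1c, Ncr1 and Klrg1, which define NK and effector cells, had 0 counts in every library. The NK receptor genes Klrd1, Klrc1, Klre1 and Klrk1 were counted in every library and were not called. Mean levels in control and KO were 4.95 and 6.88 CPM for Klrd1, 4.05 and 2.96 CPM for Klrc1, and 2.75 and 1.89 CPM for Klre1. For Klrk1 the log2 fold change was 0.37. Cd8b1 held 6.63, 7.18 and 9.91 CPM in control and 5.69, 4.91 and 8.64 CPM in KO, and Cd8a 0.243, 0.557 and 0.546 against 0.873, 0.481 and 0.966 CPM, neither called (edgeR adjusted p = 0.373 and 0.253). Eomes passed the filter only through the KO libraries and could enter the test only by being higher there. The groups did not overlap for Eomes or for Xcl1, a chemokine gene of these cells that was not tested (0, 0 and 0 counts in control, 6, 4 and 4 in KO). Every KO library lay above every control library for 29.9% of all tested genes.

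Mast cells and basophils also store serglycin and granzyme B. Of 10 markers, 5 were tested and 3 were called higher, Cpa3 (0.157 ± 0.182 to 1.19 ± 0.111 CPM, log2 fold change 3.31, edgeR adjusted p = 0.0053, or 4.28 without control replicate 1), Mcpt8 (0.358 ± 0.290 to 1.11 ± 0.323 CPM, not called in 5 of the 6 fits without 1 library) and Gata2 (0.141 ± 0.0438 to 0.514 ± 0.155 CPM, adjusted p = 0.0136), and their summed level was 3.83 to 5.66 CPM in control and 6.46 to 7.93 CPM in KO. Over all tested genes, 23.2% were called higher and 22.9% lower. Cpa3, Mcpt8 and Gata2 passed the filter only through the KO libraries, so their being tested depended on their level there. Without KO replicate 2, only 1 of them was called. The other tested markers, Kit and Hdc, were not called. Kit held 3 CPM in control and 2.59 CPM in KO (-0.23, edgeR adjusted p = 0.615). Hdc held 1.19 and 1.2 CPM (-0.036, adjusted p = 0.949). Mcpt4 and Tpsb2 had 0 counts in every library, and Ms4a2, not tested, had 1, 0 and 0 counts in control and 16, 12 and 3 in KO. The groups overlapped for Fcer1a (1, 1 and 0 counts against 7, 24 and 0) and Cma1 (0, 0 and 1 against 3, 0 and 1), also not tested. Of 13 myeloid markers, 4 were tested and 3 were called higher (Cd68, Csf1r and Ly6g), with sums of 2.74 to 6.49 CPM in control and 20.7 to 34.6 CPM in KO, most of it Cd68 (13.3 to 25.3 CPM in KO), a lysosomal protein. Csf1r and Ly6g passed the filter only through the KO libraries, and Csf1r was not called in 4 of the 6 fits without 1 library. The tested marker Cd14 was not called (1.36, edgeR adjusted p = 0.0646), and its groups overlapped. Among untested myeloid markers, Lyz2 had 0, 2 and 4 counts in control and 46, 11 and 8 in KO, and Spi1 had 2, 3 and 1 against 9, 8 and 5, so that neither overlapped between the groups. Every KO library lay above every control library for 29.9% of all tested genes. The groups overlapped for the untested Adgre1 (2, 1 and 0 counts against 0, 5 and 0) and Itgam (0, 1 and 3 against 1, 1 and 0). Mpo, Elane, S100a8, S100a9 and Fcgr1 had at most 5 counts in any library. Of 8 B cell markers, 3 were tested, with 0 called higher and 1 lower (Cd79b, -1.96, edgeR adjusted p = 0.0236). Cd79b was not called without control replicate 2, control replicate 3 or KO replicate 2. B cell markers summed to 7.68 to 18.2 CPM in control and 3.74 to 15.4 CPM in KO. Ebf1, not called, held 11 and 6.48 CPM of this on average. The part of RNA from CD8, NK, mast or myeloid cells in the granule gene levels was not tested.

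Replicate 3, the library with Y-linked counts, was the highest of its group for 6 of the 9 tested members in control and for 6 in KO. In replicates 1 and 2 alone, 9 of the 9 tested members were called higher. Of all 14329 genes tested there, 3248 were called higher and 3103 lower, which is 44.3% in both directions together. Over the 14 alternatives, the calls of 7 members (Prf1, Gzma, Gzmb, Nkg7, Serpinb9, Serpinb6a and Serpinb6b) held in each, and no member changed direction. In these alternatives, 31.1% to 53.5% of all tested genes were called.

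Genes with the most similar pattern over the 6 libraries were named for the granzyme or perforin gene and the serpin with the highest mean CPM over all 6 libraries, although in KO, and per kilobase over all 6 libraries, Serpinb9 lay above Serpinb6a. For Gzmb these were Ado (Pearson r = 0.997), Lrpap1 (0.997) and Ptp4a2 (0.997) among 9806 genes with at least 5 CPM on average, and 669 genes had r above 0.95. For Serpinb6a they were Slc35b2 (0.998), Acadvl (0.995) and Gimap9 (0.994), and 279 genes had r above 0.95. The 6 libraries form 2 groups and share their scaling, so these values are a description of these libraries.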

How the data were processed

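The authors deposited 1 table of raw read counts, whole numbers per gene symbol that sum to different totals in each library. The submitters' processing notes name STAR, featureCounts and DESeq2 and the build mm10 (GRCm38), with no version, order or annotation, and the strand setting is not given in the sources used here. Per the labels, total RNA was purified with a column kit and libraries were made at a core facility. Groups and replicate numbers came from the sample titles.

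KO was compared with control by edgeR's quasi-likelihood test (edgeR 4.0.16, R 4.3.3) over all 6 libraries, with TMM scaling, filterByExpr by group (14268 genes kept, 99.9% of counts) and Benjamini-Hochberg adjustment over all tested genes. Genes under 0.05 were called. The standard error is the absolute log2 fold change over the square root of F. On simulated data with 14110 genes, 60.6% of 2-fold and 96.0% of 4-fold changes were recovered (99 each). The simulation changed few genes and gave every gene the same variability between replicates, whereas 46.1% of genes were called in the real fit. The recovery shares therefore need not hold for the real comparison. Floors cover counting error alone, since no molecular identifiers are stated. Gene positions, exon lengths, and 50-base stretches shared with other genes came from GENCODE M21 (GRCm38), and RPKM was computed from exon lengths.

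The members, the gene lists and the motifs were chosen with earlier results of these data known. Named genes were Rtf1, the members, listed genes that were called or that a sentence is about, genes within 200 kb of a member, and, for the granzyme or perforin gene and the serpin with the highest mean CPM, the 3 genes most correlated with it. The further genes of the serpin cluster were added after their values were seen. Alternatives were DESeq2 size factors, library size only, upper-quartile factors, 2 other filters, DESeq2 (1.42.0), the replicate number as a block, each library left out, and replicates 1 and 2 alone. Replicate numbers met the rule for pairing and are used in the blocked alternative, since deviations from the group means correlated by 0.270, 0.130 and 0.379 across genes in libraries of equal number, although control replicate 2 correlated more with KO replicate 1 (0.204) than with KO replicate 2. The meaning of a replicate number is not given in the sources used here. Values of some listed genes are not reported here.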

Additional observations from a re-analysis of the deposited data

How the results depend on the processing

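Of the members, 8 were called in the comparison as reported and 7 to 9 under the 14 alternatives, with 9 under the replicate block, and no member changed direction. Leaving out 1 library gave 7 to 9. The block added Srgn. Over all tested genes, 46.1% were called in the comparison as reported and 31.1% to 53.5% under the alternatives. The members were chosen with this comparison known, so their calls under the alternatives are a description. Of the 76 tested genes in the pathway lists 43 were called, 31 to 42 with 1 library left out and 50 with the replicate block, which added 7 calls (among them Lyst, Stxbp2, Stat4, Stat5b, Mcl1 and Tnf) and removed 0. Of those 43 calls, 29 held in each of the 14 alternatives and none of the 43 genes changed direction. Over all genes, 6574 of the 14268 tested were called, 4460 to 7050 with 1 library left out and 7628 with the replicate block. Library size as the only scaling moved the median of all genes from 0.013 to 0.10 (log2), and 3809 genes were then called higher and 2799 lower. The median of the transcription factor list, 0.011, ran from -0.084 without control replicate 1 to 0.093 without KO replicate 1. Members with few control counts (Prf1, Gzma and Nkg7, 2 to 26 per library) have fold changes limited by depth, and Gzmk could not be measured.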
